A study of Mus musculus with 10 samples.

Results

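The genes described here encode NADPH oxidases of phagocytes and of epithelium, with the proteins that assemble with them. Of 22607 genes measured, 9 were taken by name: Cybb, Cyba, Ncf1, Ncf4, Rac2, Hvcn1, Nox1, Duox2 and Duoxa2. Each was summed over all its transcripts in the deposited tables, including models annotated for nonsense-mediated decay. The mice were wild-type C57BL/6, 8 weeks old, and their antigen-presenting cells gave 10 mRNA libraries, 2 in each of 5 groups. The groups were colonic MHCII+ cells, splenic MHCII+ cells, and colonic cells sorted as CD11c+, CD11b+CD11c+ or CD11b+. The colonic and splenic origin was read from abbreviated sample titles together with the series design text, and no label says that the libraries of a group came from separate animals, so a p-value here is set by library spread, which may be technical. No treatment or allele is named for any group. In the sorted subsets Itgam, which encodes CD11b, was 26.9 and 41.5 counts per 1000000 (CPM) in the CD11c+ libraries against 752 to 875 CPM in the 4 CD11b+ and CD11b+CD11c+ libraries, while Itgax, which encodes CD11c, was still 503 and 574 CPM in the CD11b+ libraries.

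NADPH oxidases pass electrons from NADPH across a membrane to oxygen. In phagocytes the catalytic chain encoded by Cybb sits in the membrane with its partner from Cyba, and it becomes active once cytosolic proteins, among them those of Ncf1 and Ncf4, and the GTPase Rac2 join it. The proton channel of Hvcn1 balances the charge that the enzyme moves. Colonic epithelium uses other catalytic chains: Nox1, which works with Cyba and the organizer Noxo1 and the activator Noxa1, and Duox2, which releases hydrogen peroxide and needs the maturation factor Duoxa2 to leave the endoplasmic reticulum.

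The members lie on 5 chromosomes. Cybb (chrX:9435252-9487771, minus strand) and Nox1 (chrX:134086421-134221956, minus strand) share a chromosome, as do Hvcn1 (chr5:122206804-122242297, plus strand) and Ncf1 (chr5:134220053-134229625, minus strand), and Ncf4 (chr15:78244801-78262580, plus strand) and Rac2 (chr15:78559167-78572783, minus strand). Cyba is at chr8:122424776-122432930 on the minus strand. Duox2 (chr2:122279247-122298449, minus strand) and Duoxa2 (chr2:122298900-122302885, plus strand) are transcribed away from each other, with 450 bases between them. All coordinates are on mm10. Several members overlap another gene, among them Hvcn1 with Tctn1 on the other strand (4450 bases) and Nox1 with Xkrx on its own strand (13034 bases), but no coding base was shared in any of these overlaps.

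Promoter sequences were found for 6 members in a RefSeq table on build GRCm38.p6. The windows of 4 are shown, because Cybb and Nox1 are the catalytic chains of phagocytes and of epithelium and Duox2 and Duoxa2 are a divergent pair measured together. Each runs 5′ to 3′ on the gene's strand, from 250 bases before the RefSeq start to 20 after it, at chrX:9469305-9469574, minus strand (Cybb), chrX:134111835-134112104, minus strand (Nox1), chr2:122298208-122298477, minus strand (Duox2) and chr2:122298650-122298919, plus strand (Duoxa2). The RefSeq starts of Cybb, Nox1 and Duox2 lie inside the wider gene models used for the counts, whose coordinates are given above. Capitals mark matches on either strand to the 4 motifs searched, which were chosen after earlier results were known: the PU.1 core GAGGAA, the GATA site TGATAA, the CCAAT box CCAAT and the TATA box TATAAA.
Cybb: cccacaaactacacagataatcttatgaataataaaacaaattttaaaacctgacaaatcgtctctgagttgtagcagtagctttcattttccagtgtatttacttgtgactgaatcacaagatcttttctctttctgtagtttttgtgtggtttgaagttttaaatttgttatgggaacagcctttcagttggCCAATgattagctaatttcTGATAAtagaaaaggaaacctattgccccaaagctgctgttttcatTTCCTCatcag
Nox1: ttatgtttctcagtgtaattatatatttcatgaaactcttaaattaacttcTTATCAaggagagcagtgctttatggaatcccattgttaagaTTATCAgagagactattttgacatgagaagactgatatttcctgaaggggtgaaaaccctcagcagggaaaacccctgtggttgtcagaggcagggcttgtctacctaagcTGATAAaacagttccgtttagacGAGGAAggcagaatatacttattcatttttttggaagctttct
Duox2: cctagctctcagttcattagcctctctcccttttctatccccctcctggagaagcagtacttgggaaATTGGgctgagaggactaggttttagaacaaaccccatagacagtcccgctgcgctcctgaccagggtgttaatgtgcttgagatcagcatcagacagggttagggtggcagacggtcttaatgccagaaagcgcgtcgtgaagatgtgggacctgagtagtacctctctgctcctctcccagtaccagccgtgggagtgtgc
Duoxa2: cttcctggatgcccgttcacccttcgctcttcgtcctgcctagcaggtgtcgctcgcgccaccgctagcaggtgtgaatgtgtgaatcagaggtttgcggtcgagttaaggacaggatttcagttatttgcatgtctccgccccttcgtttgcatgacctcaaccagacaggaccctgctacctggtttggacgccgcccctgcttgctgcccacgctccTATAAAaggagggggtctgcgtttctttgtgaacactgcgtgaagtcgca

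In the Cybb window the CCAAT box began at -56, counted from the start site, the GATA site at -37 and the PU.1 core, on the opposite strand, at 9. The Nox1 window held 1 PU.1 core at -23 and 3 GATA sites, at -199 and -157 on the opposite strand and at -46 on the given one. Duox2 held a CCAAT box on the opposite strand at -183, and Duoxa2 a TATA box at -30, each without a match to the other 3 motifs. None of these matches overlapped another. Over 32851 mouse promoter windows of the same length, 25.1% held a PU.1 core, 8.44% a GATA site, 35.4% a CCAAT box and 12.9% a TATA box. Of the other windows, Cyba held 1 GATA site at -215 and Ncf1 none of the 4 motifs. A match is a stretch of letters and was not tested as a binding site.

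Libraries held 12806139 to 41769042 estimated counts. Levels below are CPM with library sizes scaled by TMM over all 10 libraries, while fold changes and adjusted p-values come from edgeR's quasi-likelihood test with Benjamini-Hochberg adjustment over all genes. The 4 MHCII+ libraries and the 6 sorted libraries were fitted apart, and fitted folds need not equal ratios of the printed CPM. The gap can be larger for genes near 0 counts, such as Duox2 in spleen. In bulk samples, fewer cells of a type and less RNA per cell cannot be told apart. Of the marker lists for other cells, 14 epithelial genes summed to 5745 and 5391 CPM in colonic MHCII+ libraries, 23.7 and 29.7 CPM in splenic ones, and 525 to 1364 CPM in the sorted colonic libraries. Neutrophil markers (11 genes) summed to 5950 and 8456 CPM in spleen against at most 642 CPM in any colonic library, and 10 B cell markers to 3331 and 3569 CPM against at most 376 CPM. Macrophage markers (12 genes) ranged from 500.2 and 1581 CPM in CD11c+ libraries to 10579 and 13910 CPM in CD11b+CD11c+ libraries. Plasma cell markers (5 genes) had the largest sums, 30738 and 40269 CPM in CD11c+ libraries. They summed to 10647 to 16289 CPM in the other colonic libraries and 126 and 107 CPM in spleen.

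**Figure D1:**
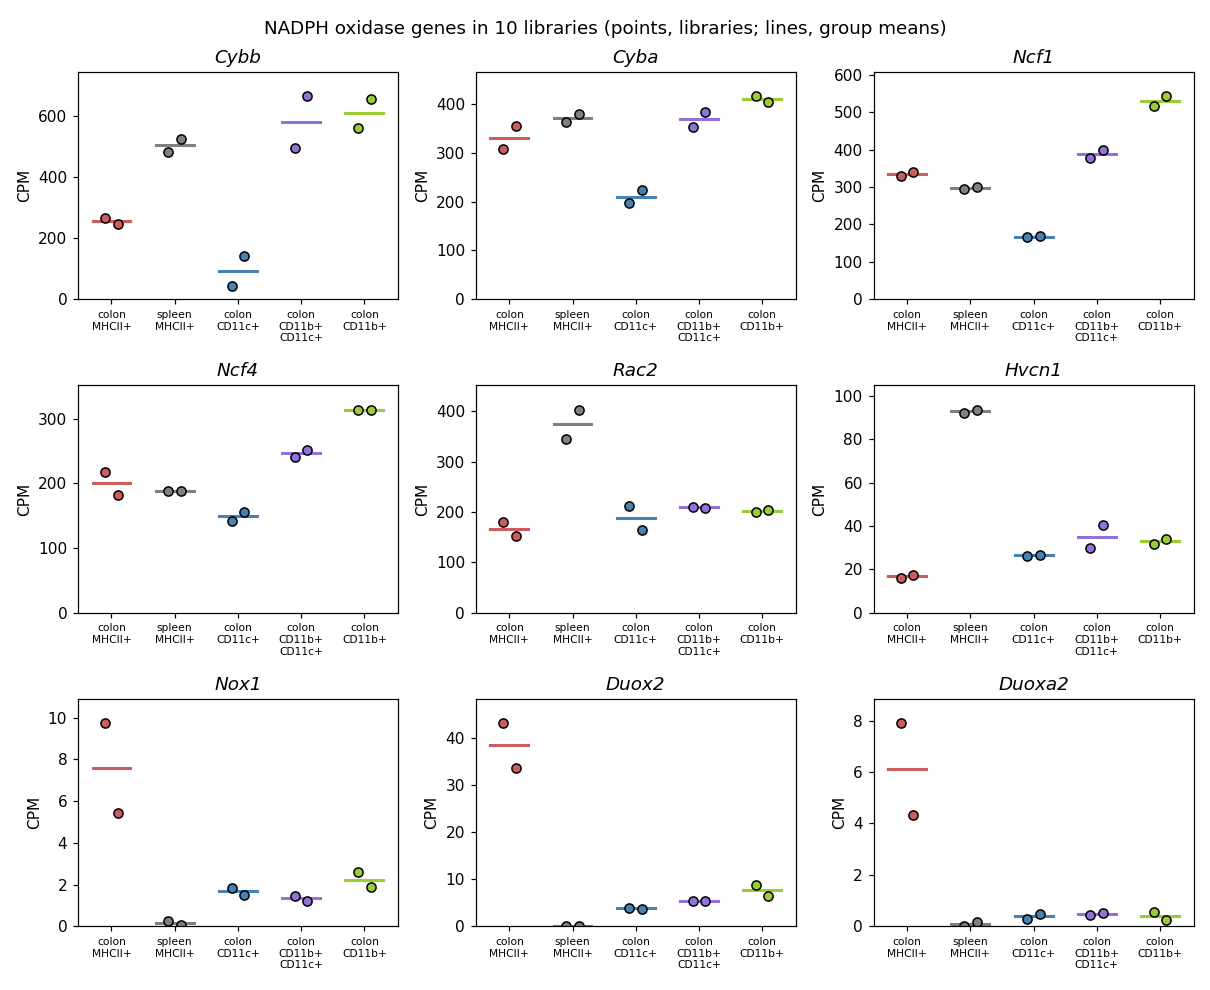
Level of each of the 9 genes (CPM, linear axes starting at 0) in the 5 groups, with points for the 2 libraries and a line at their mean. Nox1, Duox2 and Duoxa2 are highest in the colonic MHCII+ libraries, Rac2 and Hvcn1 in the splenic ones, and Cybb, Cyba, Ncf1 and Ncf4 in the CD11b+ group by mean.

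The first comparison set colonic against splenic MHCII+ cells. The epithelial oxidase genes Nox1, Duox2 and Duoxa2 were higher in colonic cells, Cybb, Rac2 and Hvcn1 were lower, and Cyba, Ncf1 and Ncf4 did not pass the test. Thus 3 of 9 members were called higher and 3 lower, beside 31.6% and 28.7% of all 15076 genes tested (60.3% in either direction), so the share of members called was near that of all genes. All 9 members passed the filter on low counts here. Nox1, Duox2 and Duoxa2, on 14, 3 and 6 splenic counts, passed it only through their colonic libraries. A call of lower was thus not open to them, and they make up all 3 calls of higher. The median log2 difference over the members was 0.11, against 0.02 over all genes tested.

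Cybb, the catalytic chain, measured 265 and 245 CPM in colonic MHCII+ libraries and 483 and 525 CPM in splenic ones. The groups did not overlap, and Cybb was 1.95-fold lower in the colonic cells (log2 -0.97, SE 0.10, adjusted p = 0.00029). In 1 fit over all 10 libraries the size was the same (log2 -0.98) but the call was lost (adjusted p = 0.0727). Its membrane partner Cyba was 307 and 355 CPM against 363 and 380 CPM, a difference of -0.15 (SE 0.11, adjusted p = 0.296). Although each splenic library lay above both colonic ones, the Cyba difference did not exceed what the fit allows for spread.

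The cytosolic organizer Ncf1 was 330 and 341 CPM in colonic and 294 and 300 CPM in splenic libraries (log2 0.20, SE 0.09, adjusted p = 0.109). Ncf4, the phosphoinositide-binding subunit, was 218 and 182 CPM against 188 and 188 CPM, so that the splenic libraries fell between the colonic ones (log2 0.11, SE 0.11, adjusted p = 0.416). Its direction turned without colonic replicate 1 (log2 -0.05) and in limma on log2(TPM + 1) (log2 -0.06). Rac2, the haematopoietic Rac GTPase, was 180 and 151 CPM against 344 and 403 CPM, 2.23-fold lower in colonic cells with no overlap (log2 -1.15, SE 0.13, adjusted p = 0.00037). Hvcn1 showed the largest fall of the members: 16.0 and 17.6 CPM against 92.0 and 93.5 CPM, 5.46-fold lower (log2 -2.45, SE 0.11, adjusted p = 1.02e-05). Markers of B cells and neutrophils moved the same way as Cybb, Rac2 and Hvcn1, while Cyba, Ncf1 and Ncf4 did not pass. All 10 B cell markers and 10 of 11 neutrophil markers were lower in the colonic libraries, as were 9 of 10 conventional dendritic cell and all 5 monocyte markers, while 8 of 12 macrophage markers were higher and 1 lower. All 5 plasma cell markers were higher too (13302 and 14647 against 126 and 107 CPM). The part of these cell types in the falls of Cybb, Rac2 and Hvcn1 was not tested.

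The pan-leukocyte gene Ptprc was 1092 and 1060 CPM in colonic MHCII+ libraries and 2907 and 2925 CPM in splenic ones. Set against it, the order of several members changed. Per 100 CPM of Ptprc, Cybb stood at 24.3 and 23.1 in colonic and 16.6 and 17.9 in splenic libraries, and Ncf1 at 30.2 and 32.2 against 10.1 and 10.2. Rac2 stood at 16.5 and 14.3 against 11.9 and 13.8, with no overlap. Hvcn1 alone among the phagocyte genes was lower in colonic libraries on this scale, at 1.47 and 1.66 against 3.16 and 3.20 in splenic ones. These ratios were added after the levels were seen and carry no test.

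Duox2 was nearly confined to the colonic cells of this pair, with 43.1 and 33.7 CPM (1385 and 632 counts) against 0.0657 and 0 CPM (3 and 0 counts). In the splenic library with no count, 3 counts would have been 0.0847 CPM. The ratio of pooled counts was 1070, with an exact 95% interval of 366 to 5194 that covers counting error only, and the fitted log2 fold change was 9.90 (SE 0.44, adjusted p = 1.02e-05). Its partner Duoxa2 was 7.90 and 4.31 CPM (254 and 81 counts) against 0 and 0.169 CPM (0 and 6 counts). The pooled ratio for Duoxa2 was 88.9 (interval 40.4 to 244), the fitted log2 fold change was 6.27 (SE 0.97, adjusted p = 0.00174), and 3 counts in the empty splenic library would have been 0.0657 CPM. Nox1 was 9.73 and 5.43 CPM (313 and 102 counts) against 0.263 and 0.0564 CPM (12 and 2 counts), a pooled ratio of 47.2 (interval 27.8 to 87.1) and a fitted log2 fold change of 5.48 (SE 0.66, adjusted p = 0.00058).

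All 3 stayed called when any 1 library was left out, but the fitted size moved with the splenic library that was kept and with the scale. In limma on log2(TPM + 1), a scale that understates the change of low genes, the differences were 2.47 for Duox2, 2.25 for Duoxa2 and 2.15 for Nox1, all called. Without splenic replicate 1 or replicate 2 the log2 fold change was 13.11 or 9.11 for Duox2, 5.14 or 10.63 for Duoxa2, and 6.97 or 4.83 for Nox1. All 14 epithelial markers were higher in the same libraries, with a median log2 difference of 9.0. Whether the epithelial oxidase RNA came from epithelial cells in the sort was not tested.

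**Figure D2:**
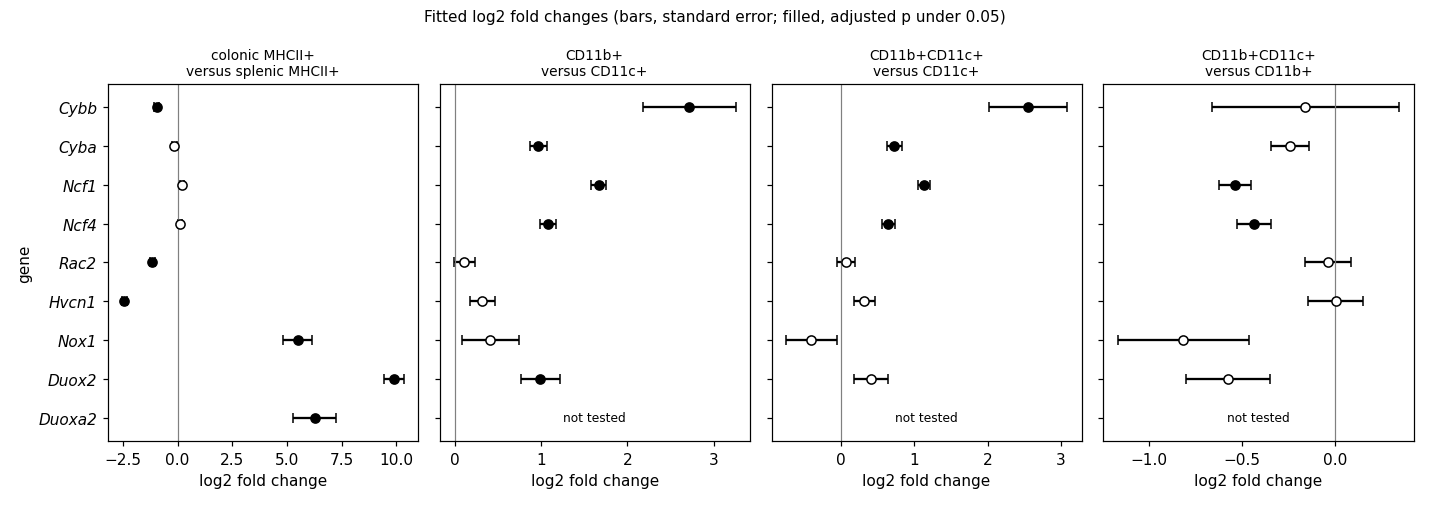
Fitted log2 fold change of each gene in the 4 comparisons (first group minus second), with bars of 1 standard error, filled points for calls and separate x axes. In colonic against splenic MHCII+ cells the values run from -2.45 (Hvcn1) to 9.90 (Duox2), while against CD11c+ cells Cybb is the highest, at 2.72 and 2.56.

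Among the 3 sorted colonic subsets, the phagocyte oxidase core was lowest in CD11c+ cells. Cybb, Cyba, Ncf1 and Ncf4 were higher in CD11b+ than in CD11c+ cells, as was Duox2, and no member was lower. That is 5 of the 8 members tested called higher, beside 27% of all 14225 genes tested called higher and 25% lower (52% in all). Duoxa2, with 4 to 8 counts in each of the 6 libraries, did not pass the filter and was not tested. The median log2 difference over the tested members was 0.98, against -0.02 over all genes. Markers of several cell types moved in the same comparison. In CD11b+ cells 11 of 12 macrophage markers, all 9 neutrophil markers tested (sums of 642 and 588 against 3.56 and 15.3 CPM) and 5 of 6 eosinophil markers (453 and 424 against 14.7 and 20.7 CPM) were higher. Of the 10 conventional dendritic cell markers 8 were lower (396 and 399 against 4254 and 4527 CPM). All 5 plasma cell markers were lower as well (16289 and 13170 against 30738 and 40269 CPM). So were 9 of 10 T and NK cell markers (118 and 153 against 756 and 324 CPM). Of the stroma and endothelium markers 4 of 5 were higher and none lower (3201 and 2915 against 936 and 1050 CPM). Of the 5 monocyte markers 3 were higher and 1 lower. The part of these cells in the member differences was not tested.

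Cybb was 562 and 656 CPM in CD11b+ libraries against 42.9 and 143 CPM in CD11c+ libraries. It was 6.57-fold higher in CD11b+ cells (log2 2.72, SE 0.54, adjusted p = 0.00783), with no overlap. The CD11c+ libraries themselves differed 3.33-fold, and leaving out replicate 1 or replicate 2 of that group gave a log2 fold change of 2.08 or 3.84, both called. Over the same 2 libraries the sum of 12 macrophage markers differed 3.16-fold (500.2 and 1581 CPM), and Csf1r, the macrophage growth factor receptor, 5.88-fold (53.2 and 313 CPM). The neutrophil sum differed 4.29-fold the same way, at low levels (3.56 and 15.3 CPM). Eosinophil and plasma cell sums rose 1.40 and 1.31-fold. Cyba, Ncf1, Ncf4 and Hvcn1 differed by 1.13, 1.02, 1.10 and 1.01-fold there, and T and NK cell markers ran the other way, at 756 and 324 CPM. The part of macrophages, neutrophils or other cells in the Cybb level of CD11c+ libraries was not tested.

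Ncf1 was 517 and 543 CPM in CD11b+ against 166 and 169 CPM in CD11c+ libraries, 3.18-fold higher (log2 1.67, SE 0.09, adjusted p = 0.00018). Ncf4 was 314 and 314 CPM against 142 and 156 CPM, 2.12-fold higher (log2 1.08, SE 0.09, adjusted p = 0.00053). Cyba was 416 and 404 CPM against 197 and 223 CPM, 1.96-fold higher (log2 0.97, SE 0.10, adjusted p = 0.00097). These 3 genes kept tight libraries within each group, so their smaller folds carried lower adjusted p-values than that of Cybb. Rac2 was 200 and 204 CPM against 212 and 165 CPM, with the CD11b+ libraries inside the CD11c+ range (log2 0.11, SE 0.12, adjusted p = 0.473). Hvcn1, at 31.8 and 33.8 CPM against 26.3 and 26.6 CPM, did not pass (log2 0.32, SE 0.15, adjusted p = 0.112), although it did in limma on log2(TPM + 1) (adjusted p = 0.0414).

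**Figure D3:**
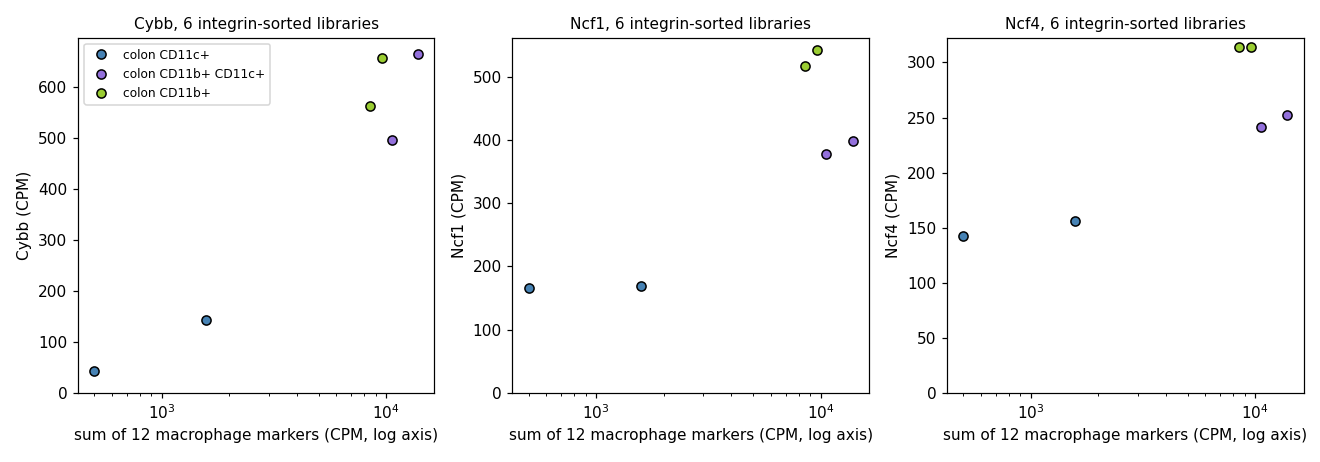
Cybb, Ncf1 and Ncf4 (CPM) against the sum of 12 macrophage markers (CPM, log axis) in the 6 libraries of the sorted colonic subsets, 1 point a library. The CD11c+ libraries sit apart on the x axis (500.2 and 1581 CPM) and differ in Cybb (42.9 and 143 CPM) but little in Ncf1 (166 and 169 CPM).

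Of the epithelial oxidase genes, Duox2 was 8.83 and 6.36 CPM in CD11b+ against 3.87 and 3.77 CPM in CD11c+ libraries, 1.99-fold higher (log2 0.99, SE 0.23, adjusted p = 0.0126). The call was lost without CD11b+ replicate 1 (log2 0.73, adjusted p = 0.0777). Nox1 was 2.60 and 1.88 CPM against 1.86 and 1.48 CPM and did not pass (log2 0.41, SE 0.33, adjusted p = 0.328). Duoxa2 was 0.552 and 0.235 CPM against 0.277 and 0.494 CPM, with the groups overlapping. Of the 14 epithelial markers, 9 were higher in CD11b+ cells and none lower, with sums of 1364 and 923 CPM against 525 and 627 CPM.

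Krt8, a keratin of simple epithelium, gives a scale for the epithelial oxidase genes over the colonic libraries. Duox2 stood at 24.2 and 22.4 CPM per 1000 CPM of Krt8 in MHCII+ libraries, 31.8 and 22.7 in CD11c+, 27.2 and 22.9 in CD11b+CD11c+, and 23.9 and 24.3 in CD11b+. While Duox2 itself ranged from 3.77 to 43.1 CPM over these 8 libraries, its ratio to Krt8 ran only from 22.4 to 31.8. Nox1 varied more against Krt8, from 3.61 to 15.3 per 1000, and was highest in the CD11c+ libraries (15.3 and 8.95). Duoxa2 was 4.44 and 2.87 per 1000 in MHCII+ libraries and 0.898 to 2.98 in the sorted ones, on at most 8 counts a library. In the splenic libraries Krt8 was 0.811 and 2.03 CPM, too low for such a ratio. These ratios were also added after the levels were seen.

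**Figure D4:**
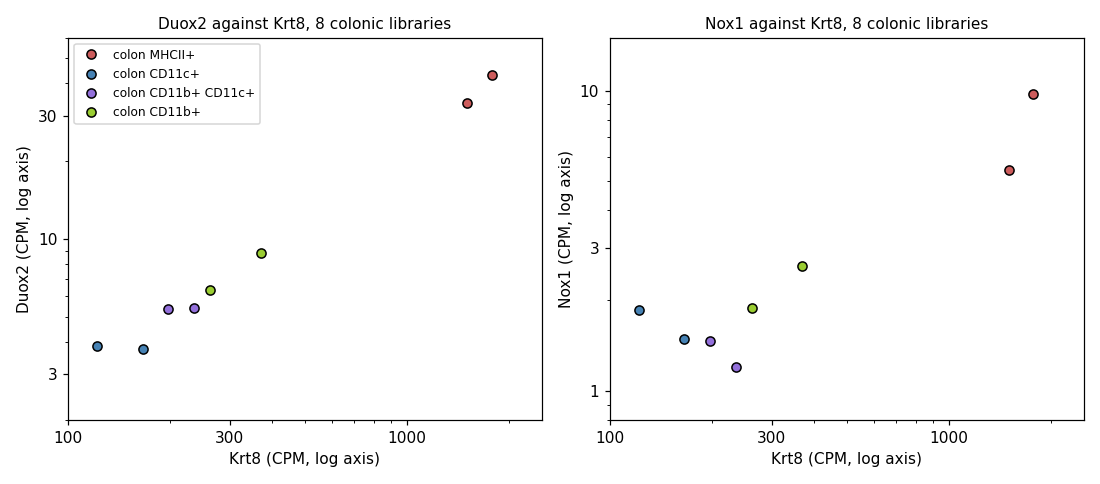
Duox2 (left) and Nox1 (right) against Krt8 in the 8 colonic libraries, both in CPM on log axes, 1 point a library, with the splenic libraries not drawn. Duox2 rises with Krt8 from 3.77 to 43.1 CPM, and Nox1 lies between 1.20 and 2.60 CPM in the sorted subsets.

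In CD11b+CD11c+ cells Cybb overlapped with the CD11b+ libraries and lay above both CD11c+ libraries. Against CD11c+ cells, 4 of the 8 members tested were called higher and none lower, beside 20.4% of all genes called higher and 22.5% lower (43% in all). In the same comparison 11 of 12 macrophage, 6 of 9 neutrophil and 4 of 6 eosinophil markers were higher. Lower were 7 of 10 conventional dendritic cell, all 5 plasma cell and 9 of 10 T and NK cell markers. Of the stroma and endothelium markers 3 of 5 were lower and none higher, and of the 5 monocyte markers 3 were higher and 2 lower. The part of these cell types was not tested. Cybb was 495 and 665 CPM, 5.88-fold above the CD11c+ libraries (log2 2.56, SE 0.54, adjusted p = 0.0117). Its log2 fold change was 1.92 or 3.68 without CD11c+ replicate 1 or replicate 2, and the call was lost without CD11b+CD11c+ replicate 2 (2.40, adjusted p = 0.0532). Ncf1, at 377 and 398 CPM, was 2.19-fold higher (log2 1.13, SE 0.09, adjusted p = 0.00058). Cyba, at 354 and 384 CPM, was 1.66-fold higher (log2 0.73, SE 0.10, adjusted p = 0.00306), and Ncf4, at 241 and 252 CPM, 1.56-fold higher (log2 0.64, SE 0.09, adjusted p = 0.00313).

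The other members did not pass against CD11c+ cells. Rac2 was 210 and 209 CPM (log2 0.07, adjusted p = 0.663), and its sign turned without TMM scaling (-0.07). Hvcn1 was 29.8 and 40.3 CPM (log2 0.32, adjusted p = 0.125), though it was called without CD11b+CD11c+ replicate 1 (0.51, adjusted p = 0.0295). Duox2 was 5.36 and 5.40 CPM, with both libraries above the CD11c+ ones (log2 0.41, adjusted p = 0.191). Nox1 was 1.47 and 1.20 CPM, below them (log2 -0.40, adjusted p = 0.385), on 20 and 14 counts. The comparison shares its CD11c+ libraries with the previous one.

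Against CD11b+ cells, Ncf1 and Ncf4 were lower in CD11b+CD11c+ cells, 2 of the 8 members tested, beside 5.84% of all genes called lower and 3.79% higher (9.63% in all). Ncf1 was 1.45-fold lower (log2 -0.54, SE 0.08, adjusted p = 0.0141) and Ncf4 1.35-fold lower (log2 -0.44, SE 0.09, adjusted p = 0.0354), with no overlap for either. Both calls were lost when any 1 of the 4 libraries was left out (adjusted p from 0.0862 to 0.145 for Ncf1 and from 0.155 to 0.232 for Ncf4), and that of Ncf4 also in 3 other settings. Cybb overlapped between the groups (log2 -0.16, SE 0.50, adjusted p = 0.875), and Cyba was -0.24 (SE 0.10, adjusted p = 0.203). Hvcn1 differed by 0.00 (SE 0.15, adjusted p = 0.998) and Rac2 by -0.04 (SE 0.12, adjusted p = 0.875), a sign that the scaling over 10 libraries turned. Nox1 was -0.82 (SE 0.35, adjusted p = 0.210) and Duox2 -0.58 (SE 0.23, adjusted p = 0.175). Neutrophil markers summed to 140 and 178 CPM here against 642 and 588 CPM in CD11b+ libraries, with 6 of 9 tested called lower. Eosinophil markers summed to 60.4 and 83.4 CPM against 453 and 424 CPM (4 of 6 lower, 1 higher), and conventional dendritic cell markers to 1862 and 1198 CPM against 396 and 399 CPM (9 of 10 higher). Stroma and endothelium markers summed to 638 and 541 CPM against 3201 and 2915 CPM (3 of 5 lower, none higher). Of the 5 monocyte markers 3 were lower and none higher. The part of these cells in the lower Ncf1 and Ncf4 was not tested.

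Over all 5 groups the order of group means differed between the genes. Cybb ran CD11b+ (609 ± 66.7 CPM, SD, n = 2), CD11b+CD11c+ (580 ± 120), splenic MHCII+ (504 ± 29.6), colonic MHCII+ (255 ± 14.3) and CD11c+ (92.9 ± 70.7), and the libraries of the first 3 groups overlapped from one to the next. Ncf1, like Duox2 and Nox1, had no overlap between any neighbours in CPM: CD11b+ (530 ± 18.5 CPM), CD11b+CD11c+ (388 ± 14.5), colonic MHCII+ (336 ± 8.00), splenic MHCII+ (297 ± 4.21) and CD11c+ (167 ± 2.35). By deposited TPM, colonic (181) and splenic MHCII+ cells (177) lay above CD11b+CD11c+ cells (173) for Ncf1. Ncf4 had the same order as Ncf1 in CPM, with colonic and splenic MHCII+ overlapping. By TPM, splenic MHCII+ cells (133) lay above CD11b+CD11c+ (131) and colonic MHCII+ cells (128) for Ncf4. In CPM, Cyba was also highest in CD11b+ (410 ± 8.49 CPM) and lowest in CD11c+ cells (210 ± 18.0), and the 3 groups between overlapped one with the next. By deposited TPM, splenic MHCII+ cells (587) lay above CD11b+ cells (539) for Cyba. Colonic MHCII+ cells (470) lay above CD11b+CD11c+ cells (438) on that scale.

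Rac2 stood out for its flat level in the colon: splenic cells were at 374 ± 41.4 CPM, and the 4 colonic groups at 166 to 209 CPM by mean. Its colonic order was CD11b+CD11c+, CD11b+, CD11c+ and MHCII+, with overlap below CD11b+. Hvcn1 ran splenic MHCII+ (92.8 ± 1.07 CPM), CD11b+CD11c+ (35.0 ± 7.47), CD11b+ (32.8 ± 1.43), CD11c+ (26.5 ± 0.223) and colonic MHCII+ (16.8 ± 1.14), with overlap only between CD11b+CD11c+ and CD11b+. Duox2 ran colonic MHCII+ (38.4 ± 6.65 CPM), CD11b+ (7.59 ± 1.74), CD11b+CD11c+ (5.38 ± 0.0295), CD11c+ (3.82 ± 0.0729) and spleen. Nox1 had colonic MHCII+ and CD11b+ first as well, then CD11c+ before CD11b+CD11c+, while Duoxa2 was highest in colonic MHCII+ cells and overlapped among the sorted subsets. The MHCII+ and sorted libraries carry separate number ranges in their titles, and a difference between those sets cannot be told apart from one between the cells.

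Levels of different genes were compared as CPM per kilobase of the longest coding sequence. Among the phagocyte members, CD11b+ cells had most Cyba (708 ± 14.7), followed by Ncf1 (436 ± 15.2), Cybb (355 ± 39.0), Rac2 (349 ± 4.83) and Ncf4 (308 ± 0.0111). The order between genes depended on the length scale: by deposited TPM, Rac2 stood above Cyba in all 5 groups, for example at 635 against 539 TPM in CD11b+ cells. In splenic MHCII+ cells Rac2 (646 ± 71.5) and Cyba (642 ± 20.5) led and Cybb followed at 294 ± 17.3. In CD11c+ cells Cybb was the lowest of these 5 genes, at 54.2 ± 41.2, below Ncf1 (138 ± 1.93) and Ncf4 (146 ± 9.71). On this scale Duox2, Duoxa2 and Nox1 reached 8.42 ± 1.46, 6.34 ± 2.63 and 4.48 ± 1.80 in colonic MHCII+ cells.

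The balance between subunits differed between groups. Per coding length, the Cyba to Cybb ratio was 2.22 and 2.14 in spleen, 2.12 and 1.71 in CD11b+CD11c+ libraries, and 2.19 and 1.82 in CD11b+ libraries. It was 3.42 and 4.29 in colonic MHCII+ libraries, and 13.6 and 4.62 in CD11c+ libraries. Ncf1 to Cybb was 0.857 and 0.805 in spleen against 1.76 and 1.97 in colonic MHCII+ libraries, and Ncf4 to Cybb 0.652 and 0.600 against 1.38 and 1.25. In each colonic MHCII+ and CD11c+ library, Cybb RNA was lower relative to Cyba than in any library of the other 3 groups.

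**Figure D5:**
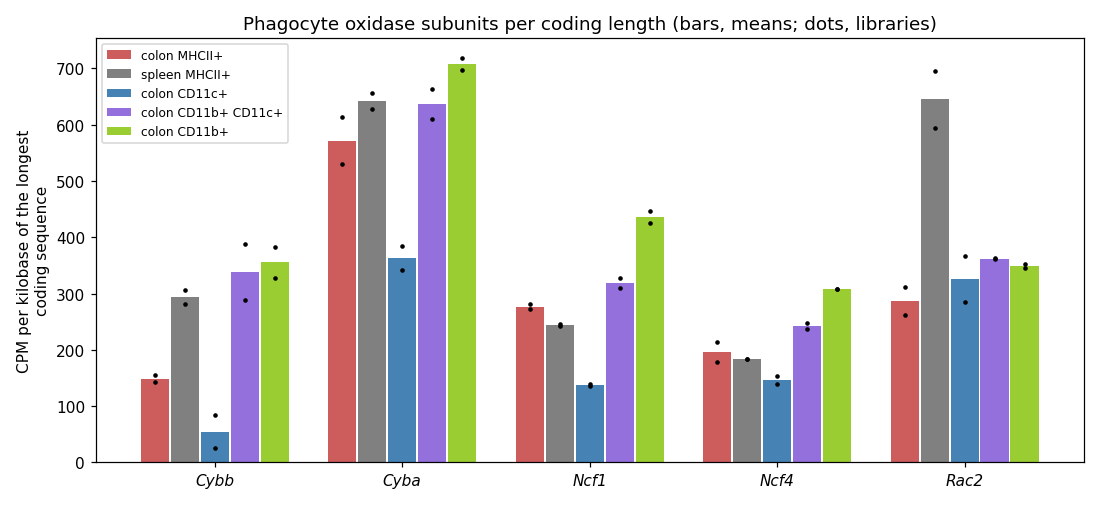
Phagocyte oxidase subunits as CPM per kilobase of the longest coding sequence (linear axis from 0), with bars for group means and dots for the 2 libraries. In CD11c+ cells Cybb has the lowest bar (54.2) and Cyba the highest (363), and Cyba reaches 708 in CD11b+ cells.

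Deposited TPM was summed over transcripts as well, and short coding models weighed on it. Hvcn1-204, of 142 bases, held 45.3 to 76.4% of the TPM of Hvcn1. As a result Hvcn1 was 24.5 and 58.3 TPM in the colonic MHCII+ libraries while its counts gave 16.0 and 17.6 CPM. For Rac2 the full model of 579 bases held 27.3 to 53.0% of the TPM, beside Rac2-203 of 243 bases (29.3 to 44.1%) and Rac2-202 of 111 bases (7.86 to 41.4%). Cybb-201, of 1713 bases, held 64.4 to 79.7% and Cybb-205, of 279 bases, 20.3 to 35.6%. Ncf1-202 and Ncf1-206, both of 1173 bases, were given identical TPM in every library. Rac2-202 and Ncf1-206 are annotated for nonsense-mediated decay. Duox2 and Duoxa2 each had a single coding model in the tables. Of 90 pairs of groups over the members, 83 had the same order in TPM as in CPM.

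The genes whose log2(CPM + 1) over the 10 libraries was most like a member's were named among 9264 genes with a mean of at least 10 CPM, as a description. For Cybb these were Apobec1 (Pearson r = 0.994), Siglece (0.990) and Sirpa (0.990), the last an inhibitory receptor of myeloid cells. Cyba was nearest to Lst1 (0.985), Cd300lb (0.983) and Igsf6 (0.974), and Ncf1 to Tbc1d2b (0.984), Ankrd33b (0.979) and Cebpb (0.977). Duox2 followed Wfdc2 (0.998), Klk1 (0.998) and Guca2a (0.998), the last the gene of guanylin, an intestinal epithelial peptide. Nox1 was nearest to Golm1 (0.985), Tnfrsf10b (0.981) and Fam83h (0.980), and Duoxa2 to Mecr (0.978), Suclg2 (0.977) and Aldh1b1 (0.975). Hvcn1 was nearest to Tctn1 (0.991), the gene it overlaps on the other strand without sharing a coding base, then Nlrp1a (0.990) and Tln1 (0.988). Ncf4 was nearest to Ift81 (0.973), Hdac5 (0.966) and Hgf (0.965), and Rac2 had Gbp9 (0.981) and Zfp52 (0.976) among its nearest. The 10 points share their 5 groups, so such values mostly reflect differences between groups.

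Within the members, Cybb and Cyba had r = 0.94 and Ncf1 and Ncf4 r = 0.94 over the same 10 libraries, Nox1 and Duox2 r = 0.97, and Duox2 and Duoxa2 r = 0.86. Rac2 and Hvcn1 had r = 0.94 with each other but 0.32 and 0.42 with Cybb. Across the phagocyte and epithelial chains, Cybb and Nox1 had r = -0.24.

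Other parts of the oxidase complexes were counted from a list of 9 genes, of which 6 passed edgeR's filter on low counts. Between colonic and splenic MHCII+ cells 3 were higher and 2 lower, beside 31.6% and 28.7% of all genes tested. The third of the higher genes, Nox4, on 32 counts against 4, was called in edgeR (adjusted p = 0.049) but not in DESeq2 or limma, and DESeq2, which tested 8 of the 9, called Duox1. The Nox1 partners Noxo1 (33.3 ± 4.21 against 2.70 ± 0.670 CPM, log2 3.63, adjusted p = 3.4e-05) and Noxa1 (14.8 ± 3.48 against 0.161 ± 0.0113 CPM, log2 6.51, adjusted p = 2e-05) were higher, as Nox1 was. Cybc1, which encodes a chaperone of the Cybb and Cyba proteins, was lower (30.7 ± 0.738 against 66.5 ± 6.28 CPM, log2 -1.10, adjusted p = 0.00029), as was Rap1a, while Rac1 did not pass (202 ± 0.652 against 178 ± 13.6 CPM, adjusted p = 0.115).

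In the sorted subsets, 3 of the 6 genes tested were higher in CD11b+ than in CD11c+ cells (Rap1a, Noxo1 and Nox4) and 2 in CD11b+CD11c+ than in CD11c+ cells (Rac1 and Rap1a), with none lower in either. Over all genes 27% and 20.4% were higher in these comparisons. Nox4, on 26 counts against 8, was not called by DESeq2. Between CD11b+CD11c+ and CD11b+ cells 0 of the 6 passed in edgeR and none of the list in DESeq2 or limma, while 2 (Noxo1 and Nox4) had an unadjusted p under 0.05 in edgeR, 1 in DESeq2 and 1 in limma. Noxo1 stood at 20.2 to 36.7 CPM per 1000 CPM of Krt8 in the 8 colonic libraries, near the values of Duox2.

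Of 15 genes for signalling that controls the phagocyte oxidase, 11 were lower and 1 higher in colonic than in splenic MHCII+ cells, beside 28.7% and 31.6% of all genes. The median log2 difference over the 15 was -1.16, against 0.02 over all genes. The list holds an inhibitor beside activators, so its counts give no direction of signalling. Arhgdib, the inhibitor that holds Rac proteins in the cytosol, was 185 ± 15.6 CPM against 543 ± 36.5 CPM, and Dock2, which loads Rac with GTP, 251 ± 1.51 against 570 ± 28.9 CPM. Against CD11c+ cells, 8 rose and 2 fell in CD11b+ cells, beside 27% and 25% of all genes, and 9 rose and 2 fell in CD11b+CD11c+ cells, beside 20.4% and 22.5%. Syk, a kinase downstream of phagocytic receptors, was 535 ± 14.0 CPM in CD11b+ and 566 ± 36.9 CPM in CD11b+CD11c+ cells against 190 ± 43.8 CPM in CD11c+ cells. Between CD11b+CD11c+ and CD11b+ cells 2 of the 15 (Pik3cg and Pak1) were higher and none lower, beside 3.79% and 5.84% of all genes.

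Genes for the handling of superoxide and peroxide, which include regulators such as Nfe2l2, numbered 23, all tested. In colonic against splenic MHCII+ cells 17 were higher and 3 lower, beside 31.6% and 28.7% of all genes (median log2 0.77 against 0.02). All 14 epithelial markers were higher in the same libraries, and the part of epithelial or other cells in these counts was not tested. Nfe2l2, the regulator of antioxidant genes, was at 323 ± 32.6 against 113 ± 14.8 CPM and Gpx1 was lower, at 397 ± 34.9 against 621 ± 39.5 CPM. Against CD11c+ cells 15 were higher and 3 lower in CD11b+ cells, beside 27% and 25% of all genes, and 12 higher and 4 lower in CD11b+CD11c+ cells, beside 20.4% and 22.5%. Txnrd1, a thioredoxin reductase, rose from 153 ± 38.8 CPM in CD11c+ to 404 ± 37.5 CPM in CD11b+ and 580 ± 41.9 CPM in CD11b+CD11c+ cells. Between the last pair 4 of 23 were lower in CD11b+CD11c+ cells and none higher, beside 5.84% and 3.79% of all genes. Of the haem peroxidases, Mpo was 1.52 ± 1.77 CPM in colonic against 32.7 ± 2.64 CPM in splenic MHCII+ cells and Epx was lower too, while Lpo, a peroxidase of secretions, was higher (6.00 ± 0.656 against 0.0110 ± 0.0155 CPM).

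Of 8 transcription factors known to act on phagocyte oxidase genes, 1 was higher and 4 lower in colonic than in splenic MHCII+ cells, which is near the 60.3% of all genes called in either direction. Spi1, which encodes PU.1, did not pass (323 ± 6.96 against 379 ± 17.5 CPM, adjusted p = 0.0894), and Irf8 was lower (185 ± 18.9 against 440 ± 49.0 CPM, log2 -1.23, adjusted p = 0.00032). Against CD11c+ cells 5 were higher and 2 lower in CD11b+ cells, and likewise in CD11b+CD11c+ cells, beside 52% and 43% of all genes called in either direction. Cebpb was 681 ± 71.8 CPM in CD11b+ and 552 ± 111 CPM in CD11b+CD11c+ cells against 86.2 ± 7.46 CPM in CD11c+ cells, and Spi1 511 ± 7.90 and 469 ± 34.4 against 255 ± 50.7 CPM. Among the sorted subsets, Irf8 ran opposite to Cybb, at 108 ± 12.9 CPM in CD11b+ and 157 ± 8.73 CPM in CD11b+CD11c+ cells against 456 ± 14.5 CPM in CD11c+ cells. In the MHCII+ pair, Irf8 and Cybb were both lower in colonic cells. In CD11b+CD11c+ against CD11b+ cells, 1 of the 8 (Cebpe) was lower and none higher, where 9.63% of all genes were called.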

How the data were processed

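Polyadenylated RNA was sequenced from 10 libraries in 5 groups of 2, per the labels. The deposited tables hold estimated counts per transcript, kallisto's expected reads, and TPM on effective lengths, per the file headers. Per the submitters' processing notes, the tools were kallisto 0.44.0 and sleuth, on build mm10. No source used here gives the index or strand setting. Of 66760 transcripts, 65747 (98.48%) matched GENCODE M21 and gave 22607 genes, and transcripts without a gene held 0.532 to 0.912% of counts. Lengths are coding lengths, since 88.9% were multiples of 3. Estimated counts were summed per gene, rounded and tested with edgeR 4.0.16 (R 4.3.3) by quasi-likelihood F tests after filterByExpr and TMM scaling, with Benjamini-Hochberg adjustment and calls at an adjusted p under 0.05. Residual degrees of freedom were 2 for the MHCII+ set and 3 for the sorted set. The test was checked on simulated data.

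Alternatives were DESeq2 1.42.0, limma 3.58.1 on log2(TPM + 1) for genes of at least 1 TPM in 2 libraries, no TMM scaling, no filter, an effective length offset, 1 fit over all libraries, a replicate block and leaving out each library. All 9 members were named in every comparison; of the other pathway lists, the 4 measured genes with the highest mean CPM could be named, or any gene of the first list, and 3 most alike genes for each member of at least 1 CPM. Some genes that these rules name are not reported here. Members and lists were chosen with earlier results of these data known. Replicates differed by more than sampling noise in every group (chi-square per gene 11.4 to 41.0). Each library was counted as 1 replicate, although this check cannot tell separate animals from repeat preparations of the same cells.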

Additional observations from a re-analysis of the deposited data

How the results depend on the processing

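The 4 comparisons kept the direction of every called member under all alternatives run. For single members, the direction and call stood in 87 of 90 recomputed values for colonic against splenic MHCII+ cells, 83 of 87 for each comparison with CD11c+ cells, and 61 of 87 for CD11b+CD11c+ against CD11b+ cells. Genes called there numbered 1370, against 2040 in DESeq2, 1990 without a filter, 1817 in 1 fit over all libraries, 1427 with the replicate block, 831 with the effective length offset, 746 in limma, and 226 (without CD11b+ replicate 1) to 771 with 1 library left out. Leaving out 1 library gave 4372 to 6894 called genes in place of 7392 for CD11b+ against CD11c+ cells and 3190 to 5700 in place of 6110 for CD11b+CD11c+ against CD11c+ cells. The share of calls that were higher in CD11b+CD11c+ than in CD11b+ cells was 39.3%, against 60.5% in 1 fit over all libraries, 55.8% without a filter, 51.8% in DESeq2, 29.0% without TMM scaling, 28.6% in limma, and 17.3% (without CD11b+ replicate 1) to 52.5% (without CD11b+CD11c+ replicate 2) with 1 library left out. Without TMM scaling that share against CD11c+ cells was 36.1% in place of 47.6% (64.6% without CD11b+CD11c+ replicate 2), and in limma for colonic against splenic cells 42.0% in place of 52.5%. The causes were not tested.

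The differences that changed sign were small ones that had not been called. In CD11b+CD11c+ against CD11b+ cells, Rac2 was 0.049 in 1 fit over all libraries, 0.002 in DESeq2, 0.058 with the effective length offset, 0.011 in limma, 0.059 without a filter and -0.051 to 0.069 with 1 library left out. Hvcn1 was -0.038 with the effective length offset, -0.090 in limma, -0.089 without TMM scaling, -0.0066 with the replicate block and -0.14 to 0.20 with 1 library left out, where Cybb ran from -0.29 to 0.052. Rac2 in CD11b+ against CD11c+ cells was -0.001 with the effective length offset and -0.056 to 0.28 with 1 library left out, and in CD11b+CD11c+ against CD11c+ cells -0.069 without TMM scaling and -0.093 to 0.24 with 1 library left out. Ncf4 in colonic against splenic cells was -0.060 in limma and -0.055 to 0.21 with 1 library left out. Ncf4 in CD11b+CD11c+ against CD11b+ cells lost its call without a filter (adjusted p = 0.0774), in 1 fit over all libraries (0.0601) and under the effective length offset (0.0664).

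Sorted samples share a replicate number across groups. Same-numbered libraries deviated with correlations of 0.33, -0.05 and 0.005, so the numbers were not taken as pairs, and the replicate block changed no call of a member (7316 and 6075 genes called against CD11c+ cells). For the MHCII+ set no paired analysis was possible because both splenic titles carry the same replicate number. With 2 libraries a group the precision is limited, and Duoxa2 in the sorted subsets had too few counts to be tested.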
